A study of Mus musculus with 11 samples.

Results

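The genes described here encode 10 haematopoietic cytokine receptor chains: Csf2rb, Csf2rb2, Csf2ra, Il3ra, Csf3r, Il4ra, Il6ra, Il2ra, Flt3 and Epor. They were taken by symbol and not by a rule on measured values, but with earlier results of these data known. All 10 were found among the 23444 rows of the expression table and passed the filter on low values that left 11442 genes for testing. RNA was sequenced from 11 libraries of mouse bone marrow cells (strain C57BL/6) that had been enriched for the receptor Kit with CD117 beads and held overnight with FLT3 (named so in the labels), IL-6, IL-3 and mSCF. For 10 of these libraries a retrovirus carrying BCR/ABL-IRES-YFP was then introduced, and 1 is a vector control. BCR/ABL is the fusion tyrosine kinase of chronic myeloid leukaemia, and imatinib inhibits it. DFC and BCI, inhibitors of FOS and Dusp1, were always used as a pair, to ask whether they act like loss of both genes. Sorted cells were treated for 4 h.

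There were 7 groups. The labels call 1 BCR/ABL library with imatinib and 1 without it c-Fos-/-Dusp1-/-, and the donor line is named ROSACreERT2 c-Fos fl/fl Dusp1-/-, in which Cre is driven from the ubiquitous Rosa locus and needs tamoxifen or a like ligand to act; whether it was given is not stated in the labels. Wild-type BCR/ABL cells gave 2 libraries with imatinib+DFC+BCI, 2 with DFC+BCI, 2 with imatinib and 2 untreated. The vector control gave 1 library, from wild-type cells as far as its title says, and what vector it received is not described in the labels. The labels speak of duplicates but not of separate animals, so p-values measure only the spread between these libraries, which may be technical. Doses are left out because their unit is in doubt.

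Values are FPKM (read fragments scaled to transcript length in kilobases and to depth), so levels of different genes can be set side by side. Column totals were 459559 to 529427 FPKM, and 10763 to 10987 genes reached 1 FPKM in a library. Kit, the selection marker, was at 5.80 and 8.30 FPKM in the libraries labelled deleted, at 6.66 to 12.4 FPKM in the 8 wild-type BCR/ABL libraries and at 34.5 FPKM in the vector library. Fos and Dusp1 RNA was not absent from the libraries labelled deleted. Fos was at 15.9 and 21.6 FPKM in the libraries labelled deleted, against 4.81 and 5.09 FPKM in untreated wild-type BCR/ABL libraries, and Dusp1 was at 28.1 and 35.7 FPKM against 8.22 and 8.46 FPKM. Fos was higher elsewhere, at 28.0 to 32.4 FPKM in wild-type libraries with DFC+BCI, with or without imatinib, and at 125 FPKM in the vector library. Dusp1 was at 102 to 133 FPKM and at 16.9 FPKM in the same libraries. Gene-level values cannot tell a disrupted allele that is still transcribed from an intact one, so the label was not tested. The 2 libraries that carry it are therefore called labelled deleted throughout.

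Most of these receptors belong to the type I cytokine receptor family, whose chains have no enzyme of their own and signal through bound JAK kinases and the STAT factors these switch on. Csf2rb is the beta chain shared by the receptors for GM-CSF, IL-3 and IL-5, with ligand-specific alpha chains such as Csf2ra and Il3ra, and mice carry a near copy, Csf2rb2, that serves IL-3. Csf3r binds G-CSF, Il4ra binds IL-4 and takes part in the IL-13 receptor, Il6ra binds IL-6 before it joins Il6st, and Epor binds erythropoietin. Il2ra is the alpha chain of the high-affinity IL-2 receptor and has a different structure, and Flt3 is a receptor tyrosine kinase of early progenitors.

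A hallmark of the type I family is a pair of tryptophan-serine dipeptides close to the membrane, and its coding stretch shows how alike the beta chain genes are. The stretches below are from the GENCODE vM21 transcripts of GRCm38, 5′ to 3′, with the codons of both tryptophan-serine pairs in capitals.
Csf2rb: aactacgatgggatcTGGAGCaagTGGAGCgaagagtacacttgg
Csf2rb2: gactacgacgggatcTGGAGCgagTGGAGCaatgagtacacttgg
Il4ra: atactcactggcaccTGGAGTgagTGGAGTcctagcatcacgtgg
Epor: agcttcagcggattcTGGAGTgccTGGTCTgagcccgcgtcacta
The same codon pattern was found once each in Csf3r and Il6ra, and not in the coding sequences of Csf2ra, Il3ra, Il2ra and Flt3. Over whole coding sequences, Csf2rb and Csf2rb2 were identical at 92.9% of 2694 aligned positions. Of all 100-base windows of the Csf2rb transcript, 6.96% occurred unchanged in the Csf2rb2 transcript, and of all 50-base windows 18.4% did, so part of the reads could have been given to either gene. The genes lie on opposite strands 20030 bases apart, at chr15:78325752-78353847 (Csf2rb, plus strand) and chr15:78282507-78305721 (Csf2rb2, minus strand).

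In the same annotation Csf2ra lies at chr19:61223957-61228429, Il3ra at chr14:14346275-14356011, Csf3r at chr4:126024550-126044440 and Il4ra at chr7:125552120-125579474. Il6ra lies at chr3:89864059-89913196, Il2ra at chr2:11642807-11693193, Flt3 at chr5:147330741-147400489 and Epor at chr9:21958897-21963506. Annotated genes on the opposite strand overlap Il3ra, Il4ra, Il6ra and Flt3. The library kit kept the strand, but whether the authors' counting used it is not stated, so part of the reads of these 4 genes may come from their partners. On the same strand, Gm37881 overlaps Il2ra, Mir7676-2 overlaps Csf2rb and Mir7676-1 overlaps Csf2rb2. Keeping the strand would not separate reads of these overlaps.

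Promoter windows of 9 of the 10 genes were found in RefSeq (GRCm38.p6), each from 250 bases before to 50 bases after the start. They were searched on both strands for TTCNNNGAA (the STAT form), TGANTCA (the AP-1 form, to which Fos dimers bind) and GGAAGT (an ETS form). No matches overlapped each other. Flt3 and Il2ra are shown because they differed most from the vector library, in opposite directions, and Csf2rb2 because its window alone among these 9 held the STAT form. Capitals mark the motif matches.
Flt3 (chr5:147400440-147400739, minus strand): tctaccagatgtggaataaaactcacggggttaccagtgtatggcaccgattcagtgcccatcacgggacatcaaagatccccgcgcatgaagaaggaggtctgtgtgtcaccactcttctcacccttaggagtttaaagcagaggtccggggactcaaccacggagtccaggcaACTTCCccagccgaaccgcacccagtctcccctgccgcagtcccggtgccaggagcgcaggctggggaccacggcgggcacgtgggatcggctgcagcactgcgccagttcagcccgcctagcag
Il2ra (chr2:11642542-11642841, plus strand): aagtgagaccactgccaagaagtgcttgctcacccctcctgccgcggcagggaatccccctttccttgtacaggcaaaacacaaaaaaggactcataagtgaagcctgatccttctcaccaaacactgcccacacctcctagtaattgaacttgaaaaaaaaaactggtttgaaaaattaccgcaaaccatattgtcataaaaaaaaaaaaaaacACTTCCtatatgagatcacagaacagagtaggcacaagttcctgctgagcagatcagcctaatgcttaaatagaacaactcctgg
Csf2rb2 (chr15:78305672-78305971, minus strand): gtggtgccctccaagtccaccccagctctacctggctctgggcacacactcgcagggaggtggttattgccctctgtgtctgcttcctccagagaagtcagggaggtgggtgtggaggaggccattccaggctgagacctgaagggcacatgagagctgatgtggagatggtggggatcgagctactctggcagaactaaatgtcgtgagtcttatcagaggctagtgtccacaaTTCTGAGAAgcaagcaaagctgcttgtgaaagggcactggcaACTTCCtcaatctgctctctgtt
The STAT form began 15 bases before the start of Csf2rb2, and 8.30% of all 32851 promoter windows hold it. GGAAGT or its reverse complement was in the windows of Csf2rb2, Il3ra, Il6ra, Il2ra and Flt3, and 23.8% of all windows hold it. TGANTCA was in none of the 9 windows, against 7.81% of all windows. A match describes the letters of the window and nothing more.

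**Figure D1:**
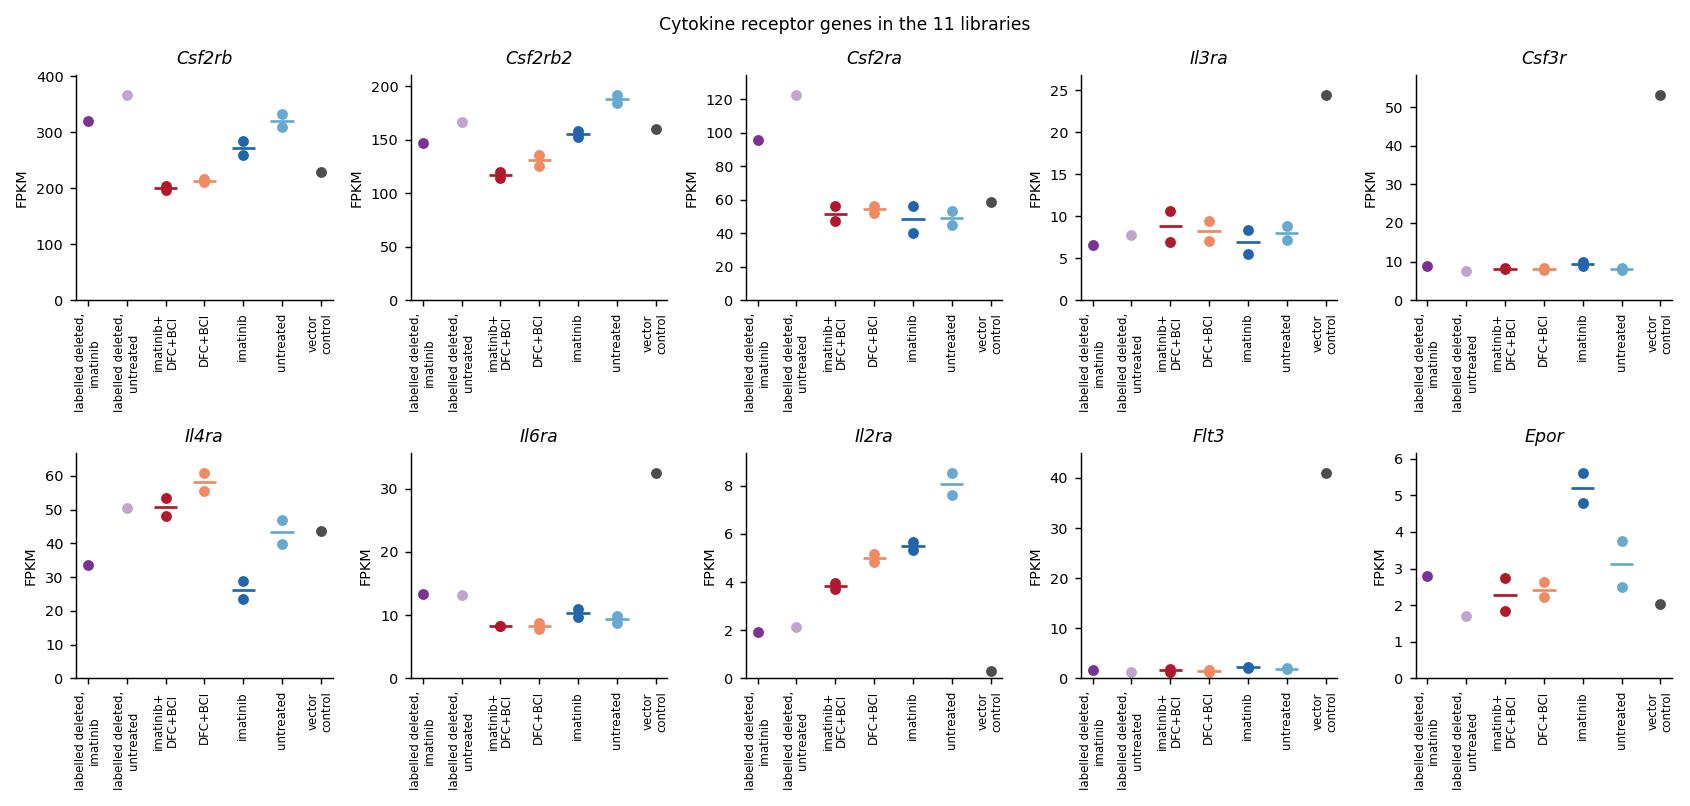
FPKM (vertical axis, from 0) of each of the 10 receptor genes by group (horizontal axis); each point is a library and a bar is the mean of a group with 2 libraries. Flt3, Csf3r, Il6ra and Il3ra have their highest point in the vector control, Il2ra its lowest, and both beta chain genes are lowest in the DFC+BCI groups among the wild-type BCR/ABL groups.

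The beta chain genes had the highest levels of these receptors in all 11 libraries. Csf2rb was at 197 to 366 FPKM with a median of 259.6 FPKM, above at least 97.1% of tested genes in every library. Csf2rb2 was at 114 to 192 FPKM, and Csf2ra, the GM-CSF-binding chain, followed at 40.3 to 122.6 FPKM. Il4ra was at 23.5 to 60.8 FPKM, a range that overlaps that of Csf2ra. Below these, Csf3r, Il6ra and Il3ra were at 5.50 to 13.4 FPKM in the 10 BCR/ABL libraries, with ranges that overlap each other. Il2ra, Epor and Flt3 had the lowest medians in those libraries, at 1.25 to 8.52 FPKM, and the range of Il2ra reached into that of Csf3r. Csf2rb and Csf2rb2 together made up 69.0% to 80.3% of the summed FPKM of the 10 genes in the BCR/ABL libraries and 60.3% in the vector library.

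BCR/ABL cells had much less Flt3, Csf3r, Il6ra and Il3ra RNA than vector cells and more Il2ra RNA. The beta chains, Csf2ra and Il4ra stayed within the fold used. With 1 vector library there is no test: a gene counted as past the fold where the higher side was at 5 FPKM or more and every pairing of libraries across the groups was at least 1 apart on the log2(FPKM + 1) scale. By that rule 5 of the 10 receptors were past the fold, 1 higher and 4 lower, against 8.01% of all genes. Epor was below 5 FPKM on both sides, so it could not count. Genes as low as that stay in the shares of all genes past the fold, here and below. The median log2 difference was −0.14 over the 10 receptors and 0 over all genes. In bulk RNA, fewer cells of a type and less RNA per cell cannot be told apart.

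Flt3 differed most. It was at 1.95 and 2.00 FPKM in the untreated BCR/ABL libraries, against 40.9 FPKM in the vector library, which is 20.7-fold lower and a log2 difference of −3.82. All 10 BCR/ABL libraries, whatever the genotype label or drug, lay between 1.25 and 2.37 FPKM, so the vector value stood alone. Csf3r, the G-CSF receptor of the neutrophil lineage, was at 7.82 and 8.32 FPKM in untreated BCR/ABL libraries, against 53.1 FPKM in the vector library, 6.58-fold lower. It varied little among BCR/ABL libraries, from 7.67 to 9.83 FPKM.

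Il6ra was at 8.77 and 9.94 FPKM in untreated BCR/ABL libraries, against 32.4 FPKM in the vector library, 3.47-fold lower. Il3ra was at 7.10 and 8.78 FPKM, against 24.4 FPKM, 3.07-fold lower. For both genes all 10 BCR/ABL libraries were below the vector library, with highest values of 13.4 FPKM for Il6ra and 10.7 FPKM for Il3ra.

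Il2ra went the other way. It was at 7.63 and 8.52 FPKM in untreated BCR/ABL libraries, against 0.297 FPKM in the vector library, where it was above only 1.97% of tested genes. All 10 BCR/ABL libraries were higher, from 1.94 FPKM upward. The ratio of means, 27.2, rests on that low vector value. Cd3e, which marks T cells, was at or below 0.0349 FPKM in untreated BCR/ABL libraries and at 0 in the vector library, and the summed level of 10 T and NK cell markers was 3.50 to 3.67 FPKM against 3.86 FPKM.

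The beta chains did not show this contrast. Csf2rb was at 308 and 333 FPKM in untreated BCR/ABL libraries, against 229 FPKM in the vector library, and 6 of the 10 BCR/ABL libraries were above the vector. Csf2rb2 was at 184 and 192 FPKM against 159.5 FPKM. Csf2ra was at 44.7 and 53.4 FPKM against 58.7 FPKM, Il4ra at 39.9 and 47.1 FPKM against 43.7 FPKM, and Epor at 2.49 and 3.76 FPKM against 2.03 FPKM. The ratio of Csf2ra to Il3ra was 6.08 and 6.29 in untreated BCR/ABL libraries and 2.41 in the vector library.

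Lineage markers differed between the same libraries. The sum of 15 measured neutrophil markers was 25071 to 25915 FPKM in untreated BCR/ABL libraries and 4376 FPKM in the vector library, with 8 past the fold higher and 1, Mpo, lower. The sum of 13 monocyte and macrophage markers was 3099 to 3137 FPKM against 8459 FPKM, that of 12 mast cell and basophil markers 763 to 767 FPKM against 2391 FPKM, and that of 13 stem and progenitor markers 696 to 701 FPKM against 792 FPKM. Of the monocyte markers 9 were past the fold lower and 1, Mrc1, higher, and of 11 tested mast cell and basophil markers 8 were lower and 1, Hdc, higher. Of 12 tested stem and progenitor markers, Cd34 and Kit were past the fold lower and Procr higher. Their part in the receptor differences was not tested.

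**Figure D2:**
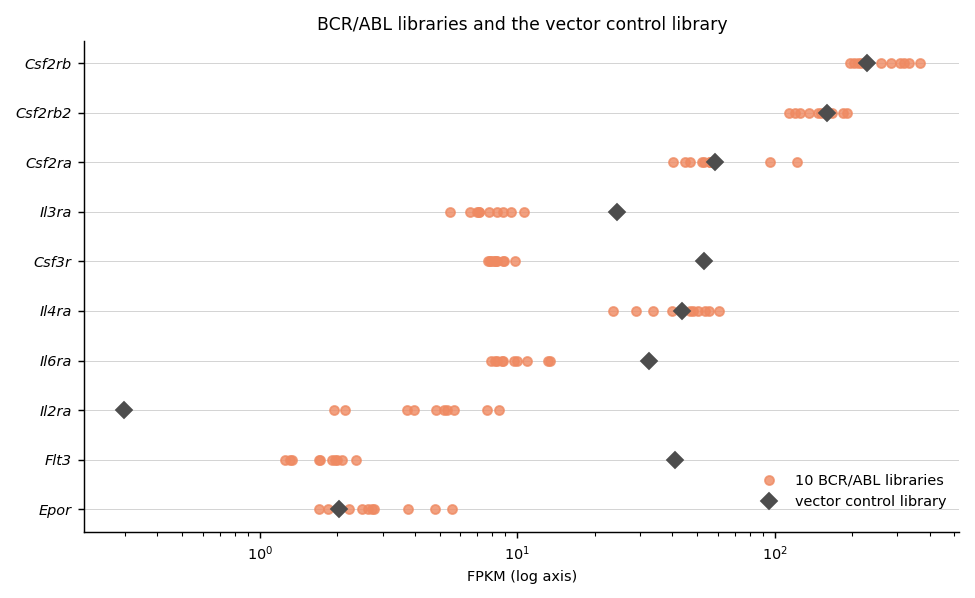
FPKM on a log axis (horizontal) of the 10 receptor genes (vertical) in the 10 BCR/ABL libraries (circles) and in the vector control library (diamond). For Il3ra, Csf3r, Il6ra and Flt3 every circle is left of the diamond, and for Il2ra every circle is right of it.

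By a rule of likeness (the smallest root mean square difference of centred log2(FPKM + 1) values over the 11 libraries, among 8871 genes), the genes most like Flt3 were Pltp, Tmem176b and Cd7, with differences of 0.26, 0.27 and 0.31. Pltp, the phospholipid transfer protein gene, was at 0.530 to 1.19 FPKM in the BCR/ABL libraries and at 36.3 FPKM in the vector library. Those most like Csf3r were Pdzk1ip1, Ms4a6c and Treml1, with differences of 0.14, 0.14 and 0.15, and Ms4a6c was at 31.9 to 41.5 FPKM in BCR/ABL libraries and at 202 FPKM in the vector library. Those most like Il2ra were Rsad2, Igfbp5 and F2r, with differences of 0.16, 0.19 and 0.21, and F2r, the thrombin receptor gene, was at 43.4 to 136 FPKM in BCR/ABL libraries and at 17.9 FPKM in the vector library. The vector library stood apart for all 3 receptors and enters each of these differences.

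Imatinib for 4 h lowered 2 of the 10 receptors, Il4ra and Il2ra, against 2.11% of all genes called in that comparison. Genes were called at an adjusted p under 0.05 (limma, Benjamini-Hochberg over all 11442 genes, 2-sided). Il4ra was at 23.5 and 28.8 FPKM in imatinib libraries, against 39.9 and 47.1 FPKM in untreated BCR/ABL libraries, with no overlap. It averaged 26.2 ± 3.74 FPKM with imatinib and 43.5 ± 5.10 FPKM untreated (SD, n = 2 each), and fell by 0.71 on the log2 scale (SE 0.12, limma adjusted p = 0.0336). Il2ra was at 5.32 and 5.66 FPKM against 7.63 and 8.52 FPKM, and fell by 0.48 (SE 0.082, limma adjusted p = 0.0340).

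Both calls were close to the threshold. They were lost in each of the 8 fits that leave out 1 library, where adjusted p ran from 0.0565 to 0.167 for Il4ra and from 0.0671 to 0.186 for Il2ra, and with only the compared groups in the fit (0.190 for Il4ra and 0.198 for Il2ra). That of Il2ra was also lost after quantile normalization (0.0576). The direction held in all of these.

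The other 8 receptors were not called. Epor was at 4.80 and 5.60 FPKM in imatinib libraries, against 2.49 and 3.76 FPKM in untreated libraries, a log2 difference of 0.60 with a 95% interval of 0.17 to 1.04 and a limma adjusted p of 0.181. The sum of 12 erythroid markers was 386 to 480 FPKM against 380 to 382 FPKM in the same libraries. Csf2rb was at 259.6 and 284 FPKM against 308 and 333 FPKM (log2 difference −0.24, limma adjusted p = 0.166), and Csf2rb2 at 152 and 158 FPKM against 184 and 192 FPKM (−0.28, adjusted p = 0.0965). Neither pair overlapped. Csf2ra and Il3ra had overlapping libraries and intervals of −0.42 to 0.35 and −0.76 to 0.37. The median over the 10 receptors was −0.11, against −0.01 over all genes.

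DFC+BCI lowered both beta chain genes and Il2ra and raised Il4ra. These were 4 of the 10 receptors, in a comparison in which 36.3% of all genes were called, so the count was close to that background. Csf2rb and Csf2rb2, near copies whose reads may be shared, were counted as 2 receptors in this and all other counts. Csf2rb was at 210.1 and 216 FPKM in DFC+BCI libraries, against 308 and 333 FPKM in untreated BCR/ABL libraries, and the libraries did not overlap. It averaged 213 ± 4.17 FPKM with DFC+BCI and 320.5 ± 17.1 FPKM untreated (SD, n = 2 each). It fell by 0.59 on the log2 scale (SE 0.070, limma adjusted p = 0.000941). Csf2rb2 was at 125 and 136 FPKM against 184 and 192 FPKM, and fell by 0.52 (SE 0.066, limma adjusted p = 0.00118).

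Because reads could be shared between the copies, their summed FPKM was tested as 1 row as well. The sum fell by 0.56 (limma adjusted p = 0.00105), so the total of the copies fell however their reads were divided. With both rows lower the sum had to fall, so it cannot show how far each copy fell. Csf2ra, the alpha partner, gave overlapping libraries of 52.3 and 56.3 FPKM with DFC+BCI and 44.7 and 53.4 FPKM untreated, with an interval of −0.24 to 0.54. The ratio of Csf2rb to Csf2ra was 3.84 and 4.02 in DFC+BCI libraries and 6.23 and 6.90 in untreated libraries.

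Il2ra was at 4.85 and 5.18 FPKM in DFC+BCI libraries, against 7.63 and 8.52 FPKM in untreated libraries, and fell by 0.59 (SE 0.082, limma adjusted p = 0.00179). Il4ra was at 55.5 and 60.8 FPKM against 39.9 and 47.1 FPKM, a log2 change of 0.41 (SE 0.12, limma adjusted p = 0.0336), opposite in sign to its change with imatinib; both comparisons share the untreated libraries. The Il4ra call was lost without DFC+BCI library a (adjusted p = 0.176), without DFC+BCI library b (0.0762) and without the untreated library at 39.9 FPKM (0.142). Il3ra, Csf3r, Il6ra, Flt3 and Epor were not called, with log2 differences between −0.25 and 0.05. The median over the 10 receptors was −0.20, against −0.03 over all genes.

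Marker sums moved in the same comparison. Neutrophil markers summed to 16109 to 16819 FPKM in DFC+BCI libraries and 25071 to 25915 FPKM in untreated libraries, with 9 of 15 called lower and none higher. Stem and progenitor markers summed to 416 to 435 FPKM against 696 to 701 FPKM, with 8 of 12 tested called lower and 1 higher. Mast cell and basophil markers summed to 595 to 624 FPKM against 763 to 767 FPKM, with 7 of 11 tested called lower. Of 13 monocyte and macrophage markers 5 were called lower and 2 higher. Of 9 tested erythroid markers 4 were called lower, of 10 megakaryocyte markers 3 and of 5 eosinophil markers 3, with none higher. No tested lymphoid or dendritic marker was called. Of all genes 36.3% were called in this comparison. Their part in the fall of the beta chains was not tested.

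**Figure D3:**
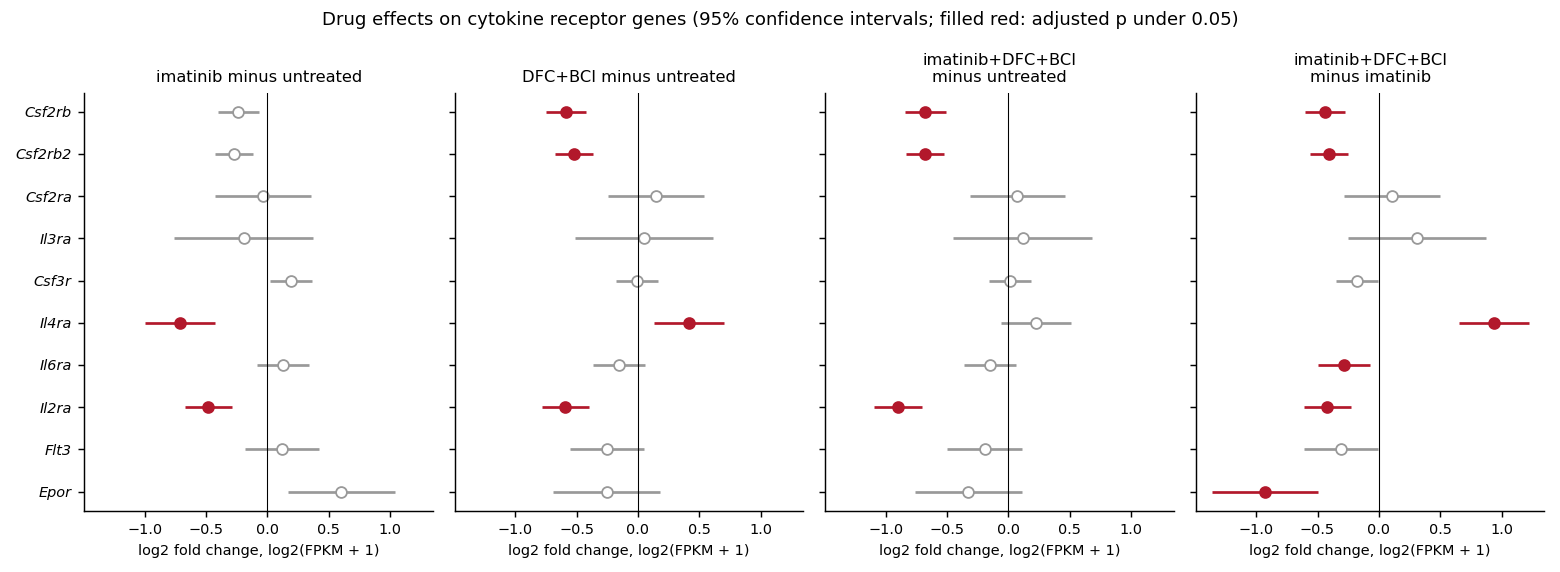
Log2 fold change (horizontal axis, log2(FPKM + 1) scale) of the 10 receptor genes in 4 comparisons; lines are 95% confidence intervals, and filled red points have a limma adjusted p under 0.05. Both beta chain genes and Il2ra are called lower in each of the 3 comparisons with DFC+BCI, and Il4ra is called lower with imatinib and higher with DFC+BCI alone and with DFC+BCI added to imatinib.

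With all 3 drugs, 3 of the 10 receptors were called against untreated BCR/ABL cells, all lower: Csf2rb, Csf2rb2 and Il2ra. In that comparison 32.8% of all genes were called. Csf2rb was at 197 and 203 FPKM in imatinib+DFC+BCI libraries, against 308 and 333 FPKM in untreated libraries, and fell by 0.68 (SE 0.070, limma adjusted p = 0.000501). Csf2rb2 was at 114 and 119.9 FPKM against 184 and 192 FPKM, and fell by 0.68 (SE 0.066, limma adjusted p = 0.000386). Il2ra had its lowest wild-type BCR/ABL values here, at 3.73 and 3.98 FPKM against 7.63 and 8.52 FPKM, and fell by 0.90 (SE 0.082, limma adjusted p = 0.000290).

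Il4ra was at 48.0 and 53.6 FPKM with all 3 drugs, above the untreated libraries at 39.9 and 47.1 FPKM, but was not called (log2 difference 0.22, 95% interval −0.06 to 0.51, limma adjusted p = 0.204). Csf2ra, Il3ra, Csf3r and Epor had overlapping libraries. Flt3 and Il6ra did not overlap but were not called, with limma adjusted p of 0.290 and 0.236.

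Adding DFC+BCI to imatinib gave the most calls, 6 of the 10 receptors against 34.6% of all genes, 1 higher and 5 lower. The near copies Csf2rb and Csf2rb2 were counted apart in this, and the call of Il6ra depended on the libraries used, as given below. Il4ra was at 48.0 and 53.6 FPKM in imatinib+DFC+BCI libraries, against 23.5 and 28.8 FPKM in imatinib libraries, a 1.94-fold higher mean and a log2 change of 0.93 (SE 0.12, limma adjusted p = 0.00134). Epor, the erythropoietin receptor, was at 1.83 and 2.73 FPKM against 4.80 and 5.60 FPKM, and fell by 0.93 (SE 0.18, limma adjusted p = 0.00806). Neither gene's libraries overlapped. The sum of erythroid markers was 320.4 to 322 FPKM against 386 to 480 FPKM. Of 9 tested, 4 were called lower and none higher, 44.4% against 34.6% of all genes. Their log2 changes ran from −2.00 to 1.59, so they did not all move together. The part of these markers in the fall of Epor was not tested.

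Csf2rb was at 197 and 203 FPKM with all 3 drugs, against 259.6 and 284 FPKM with imatinib alone, and fell by 0.44 (SE 0.070, limma adjusted p = 0.00323). Csf2rb2 was at 114 and 119.9 FPKM against 152 and 158 FPKM, and fell by 0.40 (SE 0.066, limma adjusted p = 0.00354), and Il2ra fell by 0.42 (SE 0.082, adjusted p = 0.00758). Il6ra was at 8.23 and 8.37 FPKM against 9.69 and 10.96 FPKM, and fell by 0.28 (SE 0.090, limma adjusted p = 0.0467). That last call held in only 2 of the 8 fits without 1 library, and was lost without either imatinib+DFC+BCI library (0.129 without a, 0.154 without b), either imatinib library (0.0524 without a, 0.200 without b) and either DFC+BCI library (0.0657 each). It was also lost with only the compared groups in the fit (0.0714). Csf3r (log2 difference −0.18, adjusted p = 0.0957) and Flt3 (−0.31, adjusted p = 0.103) missed the threshold. Csf3r was called after quantile normalization (0.0230) or median-of-ratios scaling (0.0462), and Flt3 without imatinib+DFC+BCI library b (0.0444).

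Adding imatinib to DFC+BCI called none of the 10 receptors by limma, in a comparison that called 0.114% of all genes, 13 genes, while 1053 genes had an unadjusted p under 0.05. Il2ra was at 3.73 and 3.98 FPKM in imatinib+DFC+BCI libraries, against 4.85 and 5.18 FPKM in DFC+BCI libraries, without overlap (log2 difference −0.31, limma adjusted p = 0.347, unadjusted 0.00662). Csf2rb2 had a log2 difference of −0.16 (unadjusted p = 0.0483), and the other 8 receptors had unadjusted p above 0.05. Il4ra was at 48.0 and 53.6 FPKM against 55.5 and 60.8 FPKM, with an interval of −0.48 to 0.09.

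Whether imatinib acted differently with DFC+BCI present was tested as an interaction. It called none of the 10 receptors, with 0.149% of all genes called, 17 genes, and 1409 genes at an unadjusted p under 0.05. Il4ra had the lowest p of these receptors, with an interaction of 0.52 (SE 0.17, unadjusted p = 0.0181, limma adjusted p = 0.296), and Epor followed with −0.67 (SE 0.26, unadjusted p = 0.0358, adjusted p = 0.367). The 95% intervals were 0.12 to 0.92 for Il4ra and −1.29 to −0.06 for Epor, which do not show that their response to imatinib was the same in both settings.

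The libraries labelled deleted differed from wild-type BCR/ABL libraries in 2 of these genes, Csf2ra and Il2ra. With 1 library in each labelled group there is no test, and 2 of the 10 receptors were past the fold in the untreated comparison, against 5.44% of all genes. Flt3 and Epor were below 5 FPKM on both sides there and could not count. Csf2ra was at 122.6 FPKM in the untreated library labelled deleted, against 44.7 and 53.4 FPKM in untreated wild-type BCR/ABL libraries, 2.50-fold higher and a log2 difference of 1.31. Il2ra was at 2.15 FPKM against 7.63 and 8.52 FPKM, 3.75-fold lower. The median log2 difference over all genes was −0.13 here, and 0 after median-of-ratios scaling, and the share of higher genes among those past the fold was 62.9% as deposited and 76.8% after that scaling.

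With imatinib in both, 1 of the 10 receptors, Il2ra, was past the fold, against 3.16% of all genes. Flt3 was below 5 FPKM on both sides and could not count. Il2ra was at 1.94 FPKM in the imatinib library labelled deleted, against 5.32 and 5.66 FPKM in wild-type imatinib libraries, 2.83-fold lower. Csf2ra was at 95.6 FPKM against 40.3 and 56.2 FPKM, a 1.98-fold higher mean that missed the rule against the higher library. For both genes the labelled libraries lay outside the whole range of the 8 wild-type BCR/ABL libraries, which was 40.3 to 56.3 FPKM for Csf2ra and 3.73 to 8.52 FPKM for Il2ra. Il6ra did so too, at 13.1 and 13.4 FPKM against 7.88 to 10.96 FPKM.

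The beta chain genes also differed in their ratio. Csf2rb over Csf2rb2 was 2.17 with imatinib and 2.20 without it in the libraries labelled deleted, 1.59 to 1.80 in the 8 wild-type BCR/ABL libraries and 1.44 in the vector library. Csf2rb was at 366 FPKM in the untreated library labelled deleted, against 308 and 333 FPKM, while Csf2rb2 was at 167 FPKM against 184 and 192 FPKM. The ratio of Csf2rb to Csf2ra was 3.34 and 2.99 in the libraries labelled deleted, below all wild-type BCR/ABL libraries. Given the shared sequence, a ratio of these copies also carries how reads were assigned.

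**Figure D4:**
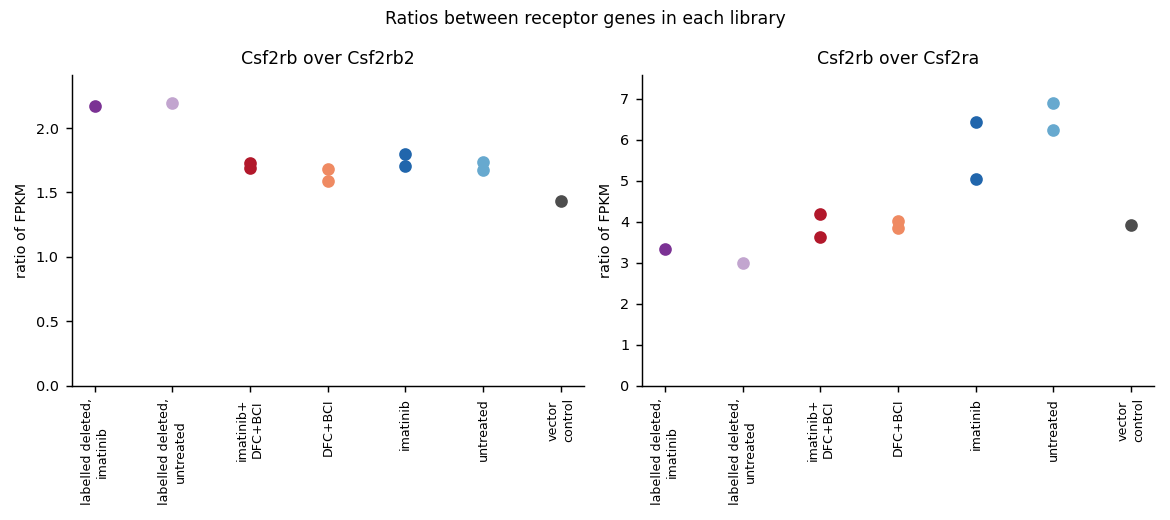
Ratio of Csf2rb to Csf2rb2 (left) and of Csf2rb to Csf2ra (right), from FPKM, by group; each point is a library and both axes start at 0. The libraries labelled deleted have the highest ratios of Csf2rb to Csf2rb2, at 2.17 and 2.20, and the lowest of Csf2rb to Csf2ra, at 3.34 and 2.99.

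Imatinib in the cells labelled deleted moved none of the 10 receptors past the fold, against 0.376% of all genes. Il4ra was at 33.7 FPKM with imatinib and 50.4 FPKM without it, a log2 difference of −0.57 beside −0.71 in wild-type cells. Epor was at 2.78 FPKM against 1.69 FPKM, a difference of 0.49 beside 0.60. Il2ra was at 1.94 FPKM against 2.15 FPKM, −0.10 beside −0.48. The difference between genotypes in the response to imatinib was not tested.

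In the libraries labelled deleted the lineage markers also differed from those of wild-type libraries without DFC+BCI. The sum of mast cell and basophil markers was 144 to 181 FPKM there, against 763 to 799 FPKM in the untreated and imatinib wild-type BCR/ABL libraries, and that of monocyte and macrophage markers was 5352 to 6347 FPKM against 3082 to 3137 FPKM. That of neutrophil markers was 15018 to 16675 FPKM against 25071 to 27388 FPKM. Wild-type libraries with DFC+BCI (16109 to 16819 FPKM) and with imatinib+DFC+BCI (15676 to 16806 FPKM) had neutrophil sums near those of the libraries labelled deleted. The other sums were not near. Mast cell and basophil sums were higher than in the libraries labelled deleted, at 595 to 624 FPKM with DFC+BCI and 607 to 638 FPKM with imatinib+DFC+BCI. Monocyte and macrophage sums were lower than in the libraries labelled deleted, at 2382 to 2392 FPKM and 2491 to 2525 FPKM. In the untreated comparison 10 of 11 tested mast cell and basophil markers were past the fold lower, 6 of 13 monocyte markers were higher and 1, C1qb, lower, and 8 of 15 neutrophil markers were lower and 1, Mmp8, higher. With imatinib in both, the same 10 mast cell and basophil markers were lower, 2 monocyte markers, Lyz2 and Cd14, were higher and C1qb lower, and 6 neutrophil markers were lower. Of all genes 5.44% were past the fold in the untreated comparison and 3.16% with imatinib in both. Their part in the level of Csf2ra was not tested.

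Other receptors of the same families were taken from a list of 30 genes, of which 24 passed the filter. Imatinib lowered 2 of them, Il15ra (log2 change −0.50, limma adjusted p = 0.0426) and Il10ra (−0.32, limma adjusted p = 0.0443), and raised none. That is 8.33% of the list against 2.11% of all genes. Both calls were nearer the threshold than those of Il4ra and Il2ra, and were not checked without 1 library. DFC+BCI lowered 8, among them Kit (−0.70), Ifngr2, a chain of the interferon gamma receptor (−0.51), Il10rb (−0.42) and Il2rb (−0.41), and raised 2, Il20rb (0.76) and Il10ra (0.41). These were 41.7% of the list, against 36.3% of all genes called in that comparison. All 3 drugs lowered 8 and raised 1 against untreated cells, with Ifngr2 (−0.73) and Il7r (−0.64) lowest and Il20rb (0.80) raised, 37.5% of the list against 32.8% of all genes. Adding DFC+BCI to imatinib lowered 7 and raised 3, 41.7% against 34.6%. These last 3 shares were close to those of all genes. Adding imatinib to DFC+BCI, and the interaction, called none. The median log2 change of these 24 genes with DFC+BCI was −0.24, beside −0.20 for the 10 receptors and −0.03 for all genes.

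Against the vector library, 7 of those 24 genes were past the fold lower in untreated BCR/ABL cells: Csf1r, Ifngr1, Il10ra, Il6st, Kit, Il13ra1 and Lifr. Only Il12rb2 was past it higher, and 8.01% of all genes were past the fold in either direction. Il6st, the signalling partner of Il6ra, was at 12.9 and 15.5 FPKM in untreated BCR/ABL libraries, against 59.8 FPKM in the vector library, so both chains of the IL-6 receptor were lower. In the untreated library labelled deleted 5 were past the fold higher than in wild-type cells, Csf1r, Il7r, Ifnar1, Il6st and Il13ra1, and none lower, against 5.44% of all genes in either direction. Il7r was at 78.7 FPKM in that library, against 14.7 and 19.5 FPKM. With imatinib in both, only Il7r was past the fold higher, at 51.1 FPKM against 17.7 and 17.9 FPKM, and none was lower. In that comparison 3.16% of all genes were past the fold.

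Of 15 ligand genes 7 passed the filter. Csf2, which encodes GM-CSF, was at 3.40 and 3.84 FPKM in DFC+BCI libraries, against 0.701 and 0.868 FPKM in untreated BCR/ABL libraries. It was at 2.10 and 2.34 FPKM with all 3 drugs, against 0.327 and 0.420 FPKM with imatinib alone. Csf2 reached 1 FPKM only in these 4 libraries with DFC+BCI and so passed the filter only through the groups where it is high, and its values are given without a test. Il6 was at 13.7 and 13.8 FPKM in imatinib libraries, against 28.7 and 30.6 FPKM untreated, and fell by 1.06 (SE 0.063, limma adjusted p = 0.000599). Il6 fell by 0.63 with DFC+BCI and by 1.39 with all 3 drugs. Il3 was at or below 0.326 FPKM in every library, and Il2 and Epo were listed at 0 in all 11.

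All 16 genes of a list of JAK kinases, adaptors and negative regulators passed the filter. Imatinib lowered Socs2, a STAT target that damps cytokine signals, by 0.59 (limma adjusted p = 0.00611) and called no other. That is 6.25% of the list against 2.11% of all genes. DFC+BCI raised 5: Gab2, an adaptor of the beta chain (0.60), Socs7 (0.36), Cblb (0.33), Socs2 (0.27) and Jak1 (0.18). The change of Socs2 was opposite in sign to that with imatinib, and both comparisons share the untreated libraries. Ptpn6, the phosphatase SHP-1, was lowered (−0.37). These calls were 37.5% of the list, close to the 36.3% of all genes called. Gab2 was at 16.3 and 16.5 FPKM in DFC+BCI libraries, against 10.2 and 10.7 FPKM in untreated libraries.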

How the data were processed

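RNA-seq libraries (11, from Kit+ mouse bone marrow cells, TruSeq stranded mRNA) were grouped from the labels into 4 groups of 2 and 3 of 1. The authors used TopHat, Cufflinks and the mm10 build (versions not given in the sources used here), per the submitters' processing notes. No unit is named in the header, and the deposited values were read as FPKM because Cufflinks writes such values. The table holds no read counts, so the depth is unknown and counting intervals are not given. From the smallest values, 1 read was estimated to be worth 1.49 to 1.97 times as much FPKM in the BCR/ABL libraries as in the vector library. That estimate is rough, because it is the most common ratio and was held by only 54 to 226 of 1310 to 1591 genes per library. Duplicate libraries correlated at r = 0.986 to 0.990, with 27 to 38 genes 2-fold apart, and none was a repeat deposit by its values.

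Analyses used log2(FPKM + 1), a scale on which changes of low genes are understated. A gene was tested if 2 or more libraries reached 1 FPKM (11442 genes). The 6 comparisons between replicated groups used limma 3.58.1 in R 4.3.3 (limma-trend, all 11 libraries in 1 fit, 4 residual and 3.2 prior degrees of freedom, Benjamini-Hochberg over all genes). The other 4 comparisons used the fold rule alone. Scripts were tested on simulated data. Sequences were read with biopython 1.88.

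The receptors, the gene and marker lists and the tests were chosen with earlier results of these data known. Of the other lists, up to 6 genes per comparison with the largest change past the test were named; genes named from comparisons without a test, marker genes with values and the ligands Il3, Il2 and Epo were chosen after their values were seen. Alternatives changed the pseudocount, filter, scaling, trend, fit, the treatment of Csf2rb and Csf2rb2, and left out each duplicate library in turn. A planned protein comparison of the beta chains was replaced by one of coding sequences.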

Additional observations from a re-analysis of the deposited data

How the results depend on the processing

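Of 15 called receptor values, 11 were called in every alternative; those of Il4ra and Il2ra with imatinib, Il4ra with DFC+BCI and Il6ra with DFC+BCI added to imatinib were not, as given above, and the cause was not tested. With no low-value filter their adjusted p was 0.112, 0.0877, 0.0836 and 0.0812. Of 60 tested receptor values, 41 were at least as large as their SE and kept their sign in every alternative, and 17 of the other 19 changed sign in at least 1.

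None of those 17 values was called; the cause of the sign changes was not tested. On the log2 scale, without 1 library, imatinib differences ranged from −0.27 to 0.20 for Csf2ra and −0.45 to 0.067 for Il3ra, and those with DFC+BCI from −0.14 to 0.24 for Il3ra and −0.048 to 0.032 for Csf3r. With all 3 drugs against untreated cells they ranged from −0.029 to 0.051 for Csf3r, −0.054 to 0.20 for Csf2ra and −0.16 to 0.39 for Il3ra, and for DFC+BCI added to imatinib from −0.13 to 0.34 for Csf2ra. For imatinib added to DFC+BCI they ranged from −0.065 to 0.067 for Il6ra, −0.012 to 0.050 for Csf3r, −0.21 to 0.34 for Il3ra, −0.20 to 0.050 for Csf2ra, −0.10 to 0.22 for Flt3 and −0.27 to 0.13 for Epor. Interaction terms ranged from −0.013 to 0.54 for Il3ra, −0.22 to 0.10 for Flt3 and −0.28 to 0.19 for Csf2ra. Quantile normalization gave 0.021 for Csf2ra with imatinib, −0.051 for Csf3r with all 3 drugs and −0.021 for Il6ra with imatinib added to DFC+BCI. Median-of-ratios scaling gave −0.022 for Csf3r with all 3 drugs, and −0.026 for Il6ra and −0.0078 for Csf3r with imatinib added to DFC+BCI.

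The count of genes called with imatinib was 241, against 122 with no filter, 27 with only the compared groups in the fit, and 55 to 112 without 1 library. It was 4148 with DFC+BCI (2134 to 3996 without 1 library), 3754 with all 3 drugs (2317 to 3581) and 3955 for DFC+BCI added to imatinib (2559 to 4021). For imatinib added to DFC+BCI it was 13, against 7 with only the compared groups and 1 to 7 without 1 library. For the interaction it was 17, against 2 with no filter, 11 after quantile normalization, 7 with no trend and 2 to 12 without 1 library. Counts past the fold stayed within 1.5 times in every alternative run.

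No paired analysis was possible because the columns carry no replicate numbers. With a filter of at least 5 FPKM in 2 libraries Flt3 and Epor have no value. Groups of 2, lone libraries and an unknown depth limit what small differences can show.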
